A study of Rattus norvegicus with 24 samples.

Results

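Dolutegravir (DTG), an inhibitor of the HIV integrase, was present throughout the differentiation described here, in which primary rat oligodendrocyte precursor cells (OPCs) became oligodendrocytes (OLs). The 4 OL libraries labelled DTG were set against the 4 OPC libraries labelled DTG, which makes 8 of the 24 libraries of the study, and each OL library was paired with the OPC library of its own culture by the culture date and letter that open the library names. Every OPC culture spent 24 hours in proliferation medium with basic fibroblast growth factor, platelet-derived growth factor and neurotrophin 3, and the OPC DTG cultures received 8 µM DTG for those 24 hours. The OL DTG cultures had the same 24 hours and then 72 hours of 8 µM DTG in a differentiation medium with thyroxine, insulin and transferrin and without those growth factors. The OPC DMSO and OL DMSO libraries of the same 4 cultures, kept for the same times in 0.04% DMSO, served as the vehicle comparison, and untreated OPC and OL libraries of cultures 1, 2 and 4 gave a list of differentiation genes. The cells came from the cortices of neonatal Sprague Dawley pups and were enriched by shaking them off mixed glial flasks, so other cortical cells may remain, and cultures 2 and 3 share a date. The medium and the length of culture change together with the stage, and their parts cannot be told apart.

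OPCs divide in response to growth factors and carry the platelet-derived growth factor receptor and the NG2 proteoglycan on their surface. When growth factors are withdrawn they leave the cell cycle, close the precursor programme and pass through a newly formed stage to a mature oligodendrocyte, which makes the proteins and lipids of myelin. The integrated stress response is a separate pathway in which phosphorylation of the initiation factor eIF2 slows translation and favours the transcription factor ATF4, whose targets include amino acid transporters and synthetases.

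The 8 DTG libraries held 13863395 to 17601865 counts on genes, and ERCC spike-in transcripts took 1.09 to 3.72% of all counts. The files carry Ensembl gene identifiers of Rnor_6.0 without symbols. A symbol was at hand for 2099 of 32883 genes, of which 1992 carry the study's own call of a fall with differentiation in DMSO and 107 carry only its call of a difference between OL DTG and OL DMSO, so most genes that rose can be described only in numbers. Of the defining markers with a symbol, Pdgfra and Cspg4 were high in every OPC DTG library, and for Mbp and Mog every OL library lay above every OPC library.

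Differentiation under DTG changed the transcriptome broadly. Of 13171 genes tested, 5057 (38.4%) passed an adjusted p under 0.05 with a fold change over 2 (1 on the log2 scale), 2186 of them higher in OLs (16.6%) and 2871 lower (21.8%), tested in edgeR by quasi-likelihood with culture as a block and p-values adjusted by Benjamini and Hochberg's method. These changes are relative to the typical gene, whose log2 fold change had a median of -0.10. Scaled to the ERCC counts instead, the median became -1.40 and the split 415 higher and 7170 lower, so every rise given below is a rise against the other genes. For a rise given by gene name under DTG, the direction against the spikes is named where it flips. In these bulk libraries, fewer cells of a type and less RNA per cell cannot be told apart. The ERCC transcripts were added to normalised total RNA, so scaling to them measures neither cell number nor RNA per cell. Under DMSO, 4246 of 13023 genes were called (32.6%), 1941 higher (14.9%) and 2305 lower (17.7%). The 2 comparisons use different libraries of the same cultures. They shared 1711 genes called higher, which were 78.3% of the DTG list and 88.2% of the DMSO list, and 2012 called lower, which were 70.1% and 87.3%. No gene called in one direction under DTG was called in the other under DMSO.

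The untreated cultures gave 1481 genes that rose and 1549 that fell on differentiation, called in libraries that entered neither comparison but come from 3 of the same 4 cultures, and these were followed under DTG. Of the risers, 1446 could be tested and 1224 were called higher (84.6%, against 16.6% of all genes), with a median log2 fold change of 1.84. Under DMSO 1276 of 1455 were called higher, with a median of 1.77. Of the fallers, 1231 of 1518 were called lower under DTG (81.1%, against 21.8% of all genes), with a median of -1.86, beside 1301 of 1502 and a median of -1.79 under DMSO. Scaled to the ERCC counts, the riser median stayed above 0 but dropped to 0.55 with 401 called higher, and the faller median became -3.16. By count of genes, most of the untreated programme moved in the presence of the drug, and 1 riser was called in the opposite direction.

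The size of the change was close to that under DMSO along the range of the programme. With the risers ranked by their untreated change and cut into 5 equal bins, the median under DTG ran from 1.33 in the lowest bin to 3.72 in the highest, beside 1.29 and 3.67 under DMSO. For the fallers it ran from -1.07 to -3.46 under DTG and from -1.18 to -3.24 under DMSO. Gene by gene, the log2 change under DTG was divided by that under DMSO for the 1263 risers whose DMSO change was over 1. This ratio had a median of 1.03, with quartiles at 0.90 and 1.16. Both tails were of like size: among 1437 risers measured in both, 44 fell short of their DMSO change by more than 1 on the log2 scale and 40 went beyond it by more than 1. By culture, the median riser changed by 1.89, 2.15, 1.90 and 1.54 under DTG in cultures 1 to 4, and by 1.89, 1.69, 1.98 and 1.56 under DMSO.

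**Figure D1:**
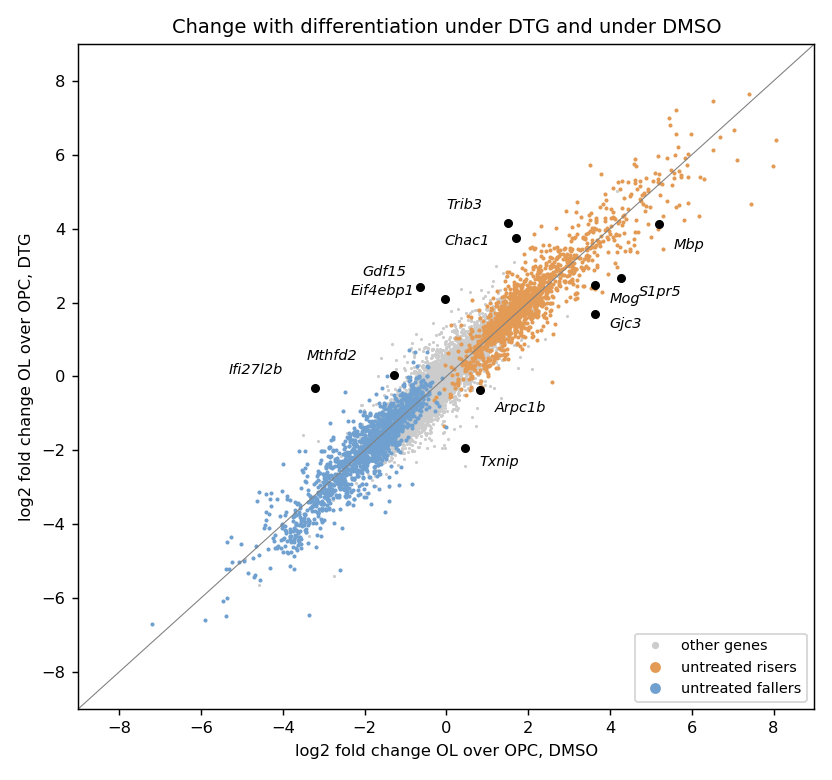
Each of 12887 genes tested in both comparisons is 1 point, with its log2 fold change of OL over OPC under DMSO on the x axis and under DTG on the y axis (TMM scaling); orange and blue mark genes that rose or fell in untreated cultures, and the line marks equality. Risers and fallers lie along the line, while Gdf15, Trib3 and Eif4ebp1 lie above it and Mbp, Gjc3 and Txnip below.

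Each library was also placed on a line on which the mean untreated OPC is 0 and the mean untreated OL is 1. Over 13415 genes the OL DTG libraries of cultures 1 to 4 lay at 0.861, 1.085, 1.013 and 0.972, and the OPC DTG libraries at -0.127, -0.034, 0.027 and 0.019. The OL DMSO libraries lay at 0.907, 1.056, 1.041 and 1.033. The OL DTG and OL DMSO ranges overlapped, and their means, 0.983 ± 0.094 and 1.009 ± 0.069 (SD, n = 4), differed by -0.027 (two-sided exact permutation p = 0.657). The exact permutation test, here and for the risers and fallers, ignores the pairing by culture, and the smallest p it allows is 0.0286. Within cultures OL DTG stood lower than OL DMSO in 3 of 4, with differences from -0.062 to 0.029 (exact paired p = 0.375). On the risers alone OL DTG stood lower than OL DMSO in 4 of 4 cultures, by 0.004 to 0.069 of the line, with a mean difference of -0.042 (exact permutation p = 0.486, and in the exact paired test the smallest p that 4 pairs allow). On the fallers the mean difference was 0.004, and the 4 cultures ran from -0.032 to 0.058 (exact permutation p = 0.943).

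**Figure D2:**
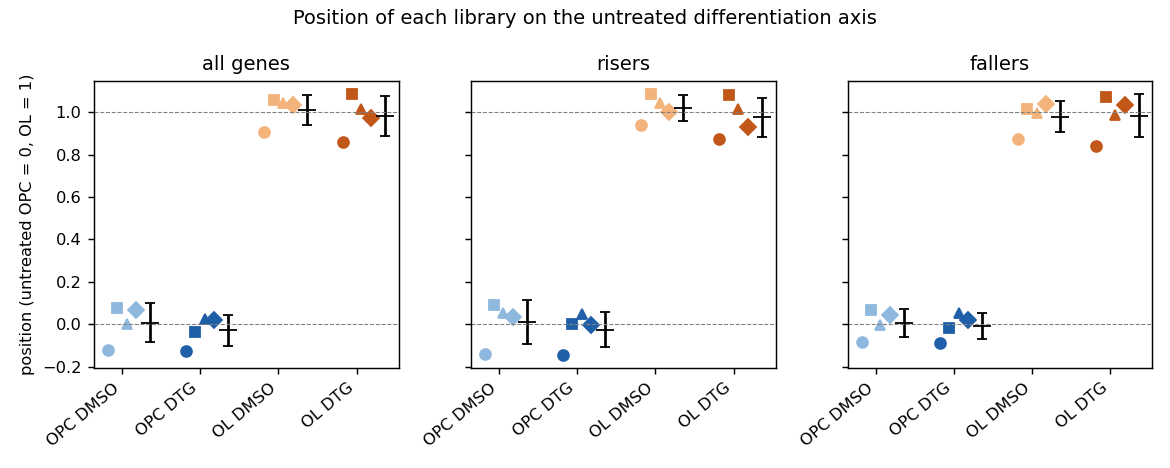
The y axis gives the position of each library between untreated OPCs (0) and untreated OLs (1), without units, for all genes, risers and fallers; each marker shape is 1 of the 4 cultures and bars are mean and SD. In each panel the 4 OL DTG libraries sit between 0.840 and 1.085, within or near the range of the OL DMSO libraries, and the OPC DTG libraries sit near 0.

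The precursor genes closed. Pdgfra, the receptor for platelet-derived growth factor, stood at 712, 809, 655 and 472 CPM (counts normalised to library size, with TMM factors over the 16 libraries) in the OPC DTG libraries of cultures 1 to 4 and at 227, 98.3, 112 and 188 in the OL DTG libraries. Every OL library lay below every OPC library, and the log2 fold change was -2.19 ± 0.31 (SE, n = 4 pairs, adjusted p = 0.000341, edgeR). Cspg4, which encodes NG2, went from 299, 187, 216 and 252 CPM to 88.2, 33.6, 51.7 and 45.9 (-2.23 ± 0.22, adjusted p = 3.63e-05, edgeR), and Nes, the intermediate filament nestin, from 153, 267, 259 and 199 to 28.5, 13.4, 18.1 and 16.009 (-3.60 ± 0.32, adjusted p = 2.14e-05, edgeR). Xylt1, a xylosyltransferase that starts proteoglycan chains, was the last of the 4 precursor identity genes with a symbol, of 26 on the list. All 4 fell, beside 21.8% of all genes, and all 4 were named from the study's list of genes that fell in DMSO, so the count is not independent of that choice.

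Receptors and feedback genes of growth factor signalling followed. Of 12 with a symbol, all from the same DMSO list, which fixed their direction under DMSO, 11 fell under DTG (21.8% of all genes did), with a median log2 fold change of -2.31 beside -2.77 under DMSO, and Etv4, a transcription factor downstream of the receptor, gave -0.72 ± 0.28 (adjusted p = 0.0504, edgeR). Spry4, a feedback inhibitor of receptor tyrosine kinases, stood at 185, 183, 183 and 211 CPM in OPC DTG and 32.2, 11.6, 15.999 and 18.5 CPM in OL DTG, a log2 fold change of -3.42 ± 0.27. Ccnd1, the cyclin D1 that links these signals to the cell cycle, went from 1509, 1841, 2329.9 and 1916 CPM to 309, 152, 157 and 173. The OL DTG library of culture 1 was the highest of its group for both genes, and its values still lay far below those of all OPC DTG libraries. Egr1, an immediate early gene, went from 82.7, 40.1, 29.7 and 49.2 CPM to 10.1, 12.9, 14.4 and 10.6 under DTG, a log2 fold change of -2.02 ± 0.32 beside -3.00 ± 0.20 under DMSO. The 4 OL DTG libraries all lay above the 4 OL DMSO libraries, at 9.53, 4.79, 5.74 and 7.16 CPM, although the difference between the changes did not pass the test (0.99 ± 0.28, adjusted p = 0.357, edgeR).

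Genes of the cell cycle fell throughout both lists. All 31 S-phase genes with a symbol fell, with log2 fold changes from -4.18 to -1.52 and a median of -2.56, and all 31 mitosis genes fell, from -5.51 to -2.26 with a median of -3.91, beside 21.8% of all genes called lower. Every one of these 62 symbols comes from the study's list of genes that fell in DMSO, so their direction is not independent of the cultures. Summed over the 31 mitosis genes, the OPC DTG libraries held 3631, 3434, 2503 and 2127 CPM and the OL DTG libraries 380.4, 225, 321 and 136 CPM. For the S-phase genes the sums were 3551, 2273, 2048 and 2600.0 CPM in OPC DTG and 586, 443, 502 and 429 CPM in OL DTG. The groups did not overlap for either sum.

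Mki67, a marker of dividing cells, stood at 190.3, 221, 97.9 and 73.9 CPM in OPC DTG and 4.97, 4.75, 7.27 and 3.81 CPM in OL DTG (-4.74 ± 0.34, adjusted p = 6.7e-06, edgeR). Mcm6, a subunit of the replicative helicase, went from 304, 177, 164 and 235 CPM to 32.8, 21.9, 24.0 and 18.7 (-3.21 ± 0.23), and Cdk1, the kinase that drives mitosis, from 178, 140.4, 123 and 125 CPM to 20.2, 10.7, 21.2 and 7.31 (-3.41 ± 0.29). The fall under DTG was larger than under DMSO for 29 of 31 S-phase genes and 29 of 31 mitosis genes, by medians that differed little (-2.42 and -3.48 under DMSO), and none of the 62 passed the test of the difference in edgeR or DESeq2. The OL DMSO sums were 399, 386, 358 and 196 CPM for mitosis and 775, 687, 661 and 559.8 CPM for S phase, so OL DTG lay below OL DMSO of the same culture in 4 of 4 cultures for both.

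The promoters of these genes hold different letters in the 2 lists. In the RefSeq promoter table (build GRCr8, the 250 bases before each start, both strands searched), the E2F-type site TTTGGCGC or TTTCCCGC was found in 6 of 23 S-phase genes with an entry, in 0 of 26 mitosis genes and in 1.26% of 27457 promoters. The cell cycle homology region TTTGAA was found in 12 of 26 mitosis genes, 1 of 23 S-phase genes and 16.03% of all promoters, and the CCAAT box in 19, 15 and 34.3%. Matches of CCAAT and TTTGAA shared letters in 1 of the 26 mitosis genes. The matches are a description of these windows and show no binding. Below are 120 bases for the 2 genes of each list that held its site and fell most under DTG, with the sites of either strand in capitals (in Gins1 2 matches, 1 on each strand, share letters): Gins1 of the replication complex (chr3:160184800-160184919, plus strand, log2 fold change -3.95), Pola1, a DNA polymerase subunit (chrX:62342464-62342583, minus strand, -3.61), Mki67 (chr1:199952630-199952749, minus strand, -4.74) and Anln, the cytokinesis protein anillin (chr8:29197514-29197633, minus strand, -4.48).
Gins1: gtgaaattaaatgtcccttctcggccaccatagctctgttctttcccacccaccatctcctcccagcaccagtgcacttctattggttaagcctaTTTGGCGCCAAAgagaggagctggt
Pola1: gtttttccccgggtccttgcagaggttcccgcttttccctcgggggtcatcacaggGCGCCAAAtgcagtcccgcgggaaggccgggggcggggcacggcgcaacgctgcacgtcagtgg
Mki67: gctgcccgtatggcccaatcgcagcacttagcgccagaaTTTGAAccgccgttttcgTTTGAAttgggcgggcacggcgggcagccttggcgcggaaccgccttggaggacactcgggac
Anln: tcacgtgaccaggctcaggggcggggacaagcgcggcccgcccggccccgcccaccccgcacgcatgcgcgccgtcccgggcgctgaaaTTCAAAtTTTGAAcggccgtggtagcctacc

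Ion channels, matrix genes and the markers of neurons fell as well. The genes named here come from the study's list of genes that fell in DMSO, except 1 matrix gene, so their counts are not independent of that choice, and 21.8% of all genes were called lower. Of 18 channel and transmitter receptor genes of precursors, 17 fell, with a median log2 fold change of -1.78 beside -1.73 under DMSO, and the inward rectifier Kcnj16 gave -0.91 ± 0.81. Gabra5, a subunit of the GABA-A receptor, had the steepest fall of them, from 7.25, 6.84, 4.90 and 9.03 CPM to 0.371, 0.176, 0 and 0.483 (-4.83 ± 0.50). Of 17 matrix and adhesion genes 16 fell, led by the fibrillin Fbn2, which went from 267, 94.6, 84.1 and 147 CPM to 4.89, 2.47, 4.13 and 3.87 (-5.21 ± 0.29), while the protease Adamts4, the exception in its naming, rose. Sox11, a transcription factor of immature neural cells, fell from 73.2, 56.2, 40.5 and 37.7 CPM to 6.90, 5.28, 8.11 and 7.13, and 4 of 5 genes known to hold back differentiation fell, with Sox9 at -0.97.

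Neuron markers moved with these genes. All 9 neuron markers with a symbol, of 17 on the list, fell under DTG (median -3.00), beside 21.8% of all genes, and all 9 were named from the list of genes that fell in DMSO. Their summed level was 95.1 to 186 CPM in OPC DTG and 9.60 to 33.4 CPM in OL DTG, with no marker at 0 over a group. Gad1, the enzyme that makes GABA, stood at 20.1, 20.1, 22.4 and 53.5 CPM in OPC DTG and 2.89, 0.528, 0.153 and 2.90 CPM in OL DTG. The microglial Cd68 fell to 0.362 to 0.616 CPM from 1.05 to 3.07 CPM, and the smooth muscle actin Acta2 fell by 5.39 on the log2 scale. The part of such cells in the fall of channel and matrix genes was not tested.

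**Figure D3:**
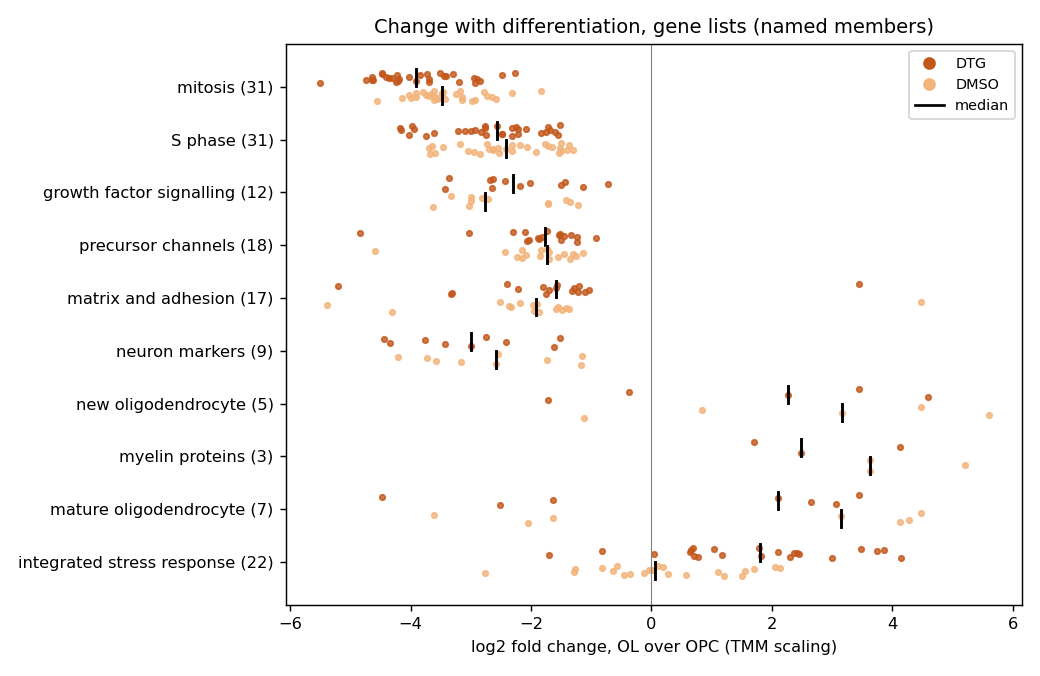
Each point is 1 named gene, with the log2 fold change of OL over OPC on the x axis, under DTG (dark) or DMSO (light), in 10 gene lists whose number of genes tested under DTG is in parentheses; black ticks are medians. Medians of the precursor lists lie between -3.91 and -1.58 under DTG, and the stress response list stands apart from its DMSO counterpart, at 1.80 against 0.05; scaled to the ERCC counts that 1.80 is 0.49. Nearly all symbols of that list come from the study's contrast of OL DTG with OL DMSO, so the gap is not independent of the choice of genes.

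All 3 myelin genes with a symbol rose under DTG (16.6% of all genes did), and less than under DMSO. They carry a symbol because the study had called them different between OL DTG and OL DMSO, so the shortfall describes the genes chosen and says nothing of the other risers, whose median change was given above. Mbp, the myelin basic protein, stood at 173, 207, 195 and 104 CPM in OPC DTG and 2417, 4232, 4406 and 1704 CPM in OL DTG, a log2 fold change of 4.13 ± 0.25 (adjusted p = 3.52e-06, edgeR). In OL DMSO it reached 7479.6, 11316, 10247 and 4239 CPM, a change of 5.21 ± 0.26. OL DTG was below OL DMSO in each culture, although the ranges overlapped across cultures. The difference of the changes was -1.05 ± 0.19 (adjusted p = 0.0726, edgeR, with the change lower in 4 of 4 cultures). DESeq2, and edgeR without its low count filter, called this difference for all 3 myelin genes.

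Mog, a glycoprotein of the outer myelin surface and a late marker, rose from 4.75, 3.31, 4.04 and 3.57 CPM to 26.8, 21.4, 21.7 and 20.4 under DTG (2.48 ± 0.25), where OL DMSO stood at 46.5, 51.6, 48.3 and 33.9 CPM (3.63 ± 0.23). Gjc3, a connexin of myelinating glia, had the largest shortfall of the 3 myelin genes with a symbol, with 1.55, 1.34, 1.94 and 1.78 CPM in OPC DTG, 3.71, 8.36, 8.04 and 3.62 CPM in OL DTG and 22.1, 36.6, 30.0 and 10.4 CPM in OL DMSO. For both genes all OL DTG libraries lay between the OPC libraries and the OL DMSO libraries. The rise of Gjc3 was 1.70 ± 0.37 under DTG and 3.63 ± 0.34 under DMSO, and the difference passed the test at -1.89 ± 0.30 (adjusted p = 0.0497, edgeR) but lost its call when any 1 of the 4 cultures was left out (-2.08 to -1.76) and in 9 of 12 alternatives, while that of Mog did not (-1.11 ± 0.22, adjusted p = 0.0893, edgeR). Against the ERCC counts Mbp remained called higher under DTG, and Mog and Gjc3 kept their direction, at 1.19 and 0.40, without passing the thresholds.

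Under DTG 16.6% of all genes were called higher and 21.8% lower. Of 5 newly formed oligodendrocyte genes with a symbol 3 rose under DTG, Arpc1b did not pass and Slc12a2, an ion cotransporter, fell. Of 7 mature ones 4 rose and 3 fell (Anln, Prr18 and Trim59). The falls of both lists were named from the study's list of genes that fell in DMSO. The 5 transcription and chromatin factors of the lineage with a symbol, Chd7, Hdac2, Nfia, Nfib and Klf6, fell under DTG by 1.04 to 2.19 on the log2 scale and come from that same list. The genes of both stages that rose were named from the contrast of OL DTG with OL DMSO, so their lower level in OL DTG is a description of that choice. Enpp6, a choline phosphodiesterase that marks newly formed oligodendrocytes, rose from 1.15, 2.40, 3.18 and 0.780 CPM to 34.8, 61.7, 56.3 and 23.6 under DTG, and stood at 92.1, 121, 109 and 47.7 CPM in OL DMSO. S1pr5, a sphingosine phosphate receptor of mature oligodendrocytes, rose from 2.40, 1.4961, 1.62 and 2.51 CPM to 12.9, 16.3, 16.8 and 7.67, against 36.2, 44.8, 40.6 and 22.6 CPM in OL DMSO. Enpp6 ranges overlapped between OL DTG and OL DMSO and S1pr5 ranges did not. The differences of the changes were -1.04 ± 0.24 for Enpp6 (adjusted p = 0.177, edgeR) and -1.58 ± 0.27 for S1pr5 (adjusted p = 0.0585, edgeR). DESeq2 called both differences, and edgeR without its low count filter called that of S1pr5. Adamts4, a matrix protease of the lineage, Tppp, a tubulin-binding protein of myelin processes, and the glycerol phosphate dehydrogenase Gpd1 rose by 3.45 ± 0.23, 3.07 ± 0.29 and 2.10 ± 0.33 under DTG and by 4.48 ± 0.21, 4.13 ± 0.27 and 3.15 ± 0.23 under DMSO. The test of the difference passed for none of these 3 in the main edgeR fit. It passed for Adamts4 in DESeq2 and in edgeR without its low count filter. Arpc1b, a subunit of the Arp2/3 complex that branches actin, stood at 98.1, 124, 151 and 145 CPM in OPC DTG and 98.5, 122, 123 and 72.0 CPM in OL DTG, with 232, 328, 269.8 and 168 CPM in OL DMSO. Its change of -0.37 ± 0.22 under DTG did not pass, becoming a called fall of 1.67 when scaled to the ERCC counts, and the difference from DMSO passed (-1.17 ± 0.16, adjusted p = 0.0194, edgeR), a call lost without culture 1, 3 or 4.

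Genes of the integrated stress response with a symbol mostly rose under DTG. Of 59 genes of the integrated stress response 22 have a symbol, 21 of them from the study's list on OL DTG and OL DMSO, and under DTG 14 rose (16.6% of all genes did), 1 fell (Slc1a5) and 7 did not pass. The median was 1.80 beside 0.05 under DMSO, a gap that the choice of genes by their level in OL DTG and OL DMSO helped to set and that supports nothing beyond it. The test of the difference called 3 of the 22 (Gdf15, Eif4ebp1 and Mthfd2) in edgeR and 13 in DESeq2. Of all 13734 genes it called 7 in edgeR and 60 in DESeq2. The rise is relative to other genes: 20 of 22 log2 fold changes were above 0, but 12 of 22 when scaled to the ERCC counts. That scaling called 5 of the 22 higher and 3 lower, beside 415 and 7170 of all 13171 genes. The summed level of the 22 genes was 1966, 1246, 1329 and 1979.6 CPM in OPC DTG, 4744, 3861, 4413 and 3610.2 CPM in OL DTG, and 1064, 1504, 2012 and 1770.4 CPM in OL DMSO. The OPC DMSO sums, 1703, 1531, 1195 and 1765 CPM, overlapped those of OPC DTG. OL DTG lay above both OPC groups, and also above OL DMSO, the contrast by which the genes were named.

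Trib3, a pseudokinase that feeds back on ATF4, rose from 1.95, 1.12, 0.754 and 1.90 CPM to 50.9, 18.0, 25.7 and 15.7 (4.14 ± 0.37, adjusted p = 2.38e-05, edgeR), beside 1.503 ± 0.41 under DMSO. Atf5, a transcription factor of the same pathway, rose from 47.5, 48.0, 61.5 and 90.5 CPM to 900.3, 1005, 1094 and 619.7 (3.85 ± 0.31 against 2.14 ± 0.26), and Chac1, which degrades glutathione, from 14.6, 6.57, 6.78 and 12.5 CPM to 134, 124, 169 and 108 (3.74 ± 0.31 against 1.71 ± 0.33). For all 3 the OL DTG libraries lay above every OL DMSO library, as the naming contrast favours. Atf4 itself went from 184, 158, 169 and 150.5 CPM to 349, 272, 358 and 442, a log2 fold change of 1.04 ± 0.21 that turned to -0.28 against the ERCC counts and lost its call without culture 4 (0.88). Asns, the asparagine synthetase, rose by 1.78 ± 0.19 and the cystine transporter Slc7a11 by 1.82 ± 0.35, beside 0.10 ± 0.25 and 0.28 ± 0.31 under DMSO, and both lost their call against the ERCC counts. The difference between the changes passed in the main edgeR fit for none of Trib3, Atf5, Chac1, Asns, Slc7a11 and Atf4 (lowest adjusted p 0.0637, for Asns), while DESeq2 called the first 4. Without its low count filter edgeR called all of them but Atf4.

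The core of the C/EBP-ATF response element, TGATGNAA, was searched in the same promoter table. It stood in 4 of 16 stress response genes with an entry (Chac1, Pck2, Slc7a1 and Trib3), in 1 of 23 S-phase genes and in 3.27% of 27457 promoters. The 2 holders with the steepest rise under DTG are shown, with the site in capitals and read here on the opposite strand, so that its letters appear as the reverse complement: Trib3 (chr3:161275534-161275653, minus strand) and Chac1 (chr3:126795908-126796027, plus strand). No match in a window says nothing about ATF4 elsewhere at a gene.
Trib3: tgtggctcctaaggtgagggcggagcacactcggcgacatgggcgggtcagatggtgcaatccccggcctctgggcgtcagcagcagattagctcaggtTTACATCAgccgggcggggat
Chac1: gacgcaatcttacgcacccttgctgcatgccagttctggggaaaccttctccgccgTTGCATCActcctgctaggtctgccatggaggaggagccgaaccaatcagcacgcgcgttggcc

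The test of whether the change with differentiation differed between DTG and DMSO called 7 of 13734 genes (0.051%), 4 with a higher change under DTG (0.0291%) and 3 with a lower one (0.0218%). All 7 have a symbol and all 7 come from the list the study drew from the same OL libraries, so the calls are not independent of that choice. The 4 were Gdf15, a stress-induced secreted factor (3.10 ± 0.30, adjusted p = 0.000994, edgeR), Ifi27l2b (3.03 ± 0.42, adjusted p = 0.0194, edgeR), Eif4ebp1, a repressor of cap-dependent translation (2.15 ± 0.32, adjusted p = 0.0308, edgeR), and the mitochondrial folate enzyme Mthfd2 (1.38 ± 0.22, adjusted p = 0.0497, edgeR). The 3 were Txnip, a glucose-responsive arrestin (-2.35 ± 0.25, adjusted p = 0.00168, edgeR), Gjc3 and Arpc1b. With no block for culture 0 genes passed, DESeq2 called 60, and leaving out cultures 1, 2, 3 or 4 left 4, 3, 2 or 0. At an unadjusted p under 0.05 in edgeR there were 1028 genes in both directions together, where 687 would be so if no gene differed. Of the 1028, 719 had a higher change under DTG and 309 a lower one. Leaving out any 1 culture ended the calls of Gjc3, Mthfd2 (1.18 to 1.48) and Ifi27l2b (2.77 to 3.29), and without culture 4 those of Gdf15 and Txnip were lost as well. Eif4ebp1 kept its call only without culture 1 and Arpc1b only without culture 2.

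Gdf15 stood at 0.750, 4.22, 4.47 and 4.85 CPM in OPC DTG, 16.2, 14.6, 27.7 and 12.9 CPM in OL DTG and 1.25, 2.03, 3.24 and 1.45 CPM in OL DMSO. It rose under DTG (2.42 ± 0.45, adjusted p = 0.00166, edgeR), while its change under DMSO did not pass (-0.65 ± 0.38). Eif4ebp1 went from 58.7, 28.7, 27.9 and 44.6 CPM to 194, 181, 186 and 123 under DTG, and OL DMSO held 20.0, 41.6, 63.7 and 38.8 CPM. Both rises kept their direction but lost their call against the ERCC counts, at 1.14 and 0.80.

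Mthfd2 and Ifi27l2b did not change beyond the test under DTG and fell under DMSO. Mthfd2 stood at 67.1, 33.2, 33.3 and 48.5 CPM in OPC DTG, 58.0, 34.7, 42.3 and 54.7 CPM in OL DTG and 13.011, 12.1, 20.2 and 18.9 CPM in OL DMSO, with log2 changes of 0.05 ± 0.20 and -1.29 ± 0.24. Scaled to the ERCC counts the change of Mthfd2 under DTG became a called fall, at -1.26. The OL DTG libraries overlapped those of OPC DTG and lay above all OL DMSO libraries. Cdkn1a, the cell cycle inhibitor p21, had a change of 0.73 ± 0.26 under DTG (-0.57 against the ERCC counts, and past the thresholds at 1.03 without culture 4) and -0.45 ± 0.20 under DMSO, at 477, 607, 525 and 382 CPM in OL DTG and 156, 249, 304 and 274 CPM in OL DMSO.

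Txnip fell under DTG. It stood at 12.3, 14.4, 12.1 and 26.6 CPM in OPC DTG and 2.67, 10.7, 3.98 and 2.42 CPM in OL DTG (-1.94 ± 0.45, adjusted p = 0.00512, edgeR), and at 32.8, 62.1, 30.3 and 23.8 CPM in OL DMSO (0.46 ± 0.26). Its relative Arrdc4 fell from 6.20, 12.6, 10.3 and 7.97 CPM to 2.67, 1.58, 2.99 and 2.96 under DTG (-1.87 ± 0.36), beside -0.05 ± 0.22 under DMSO. In both, every OL DTG library lay below every OPC DTG and every OL DMSO library.

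**Figure D4:**
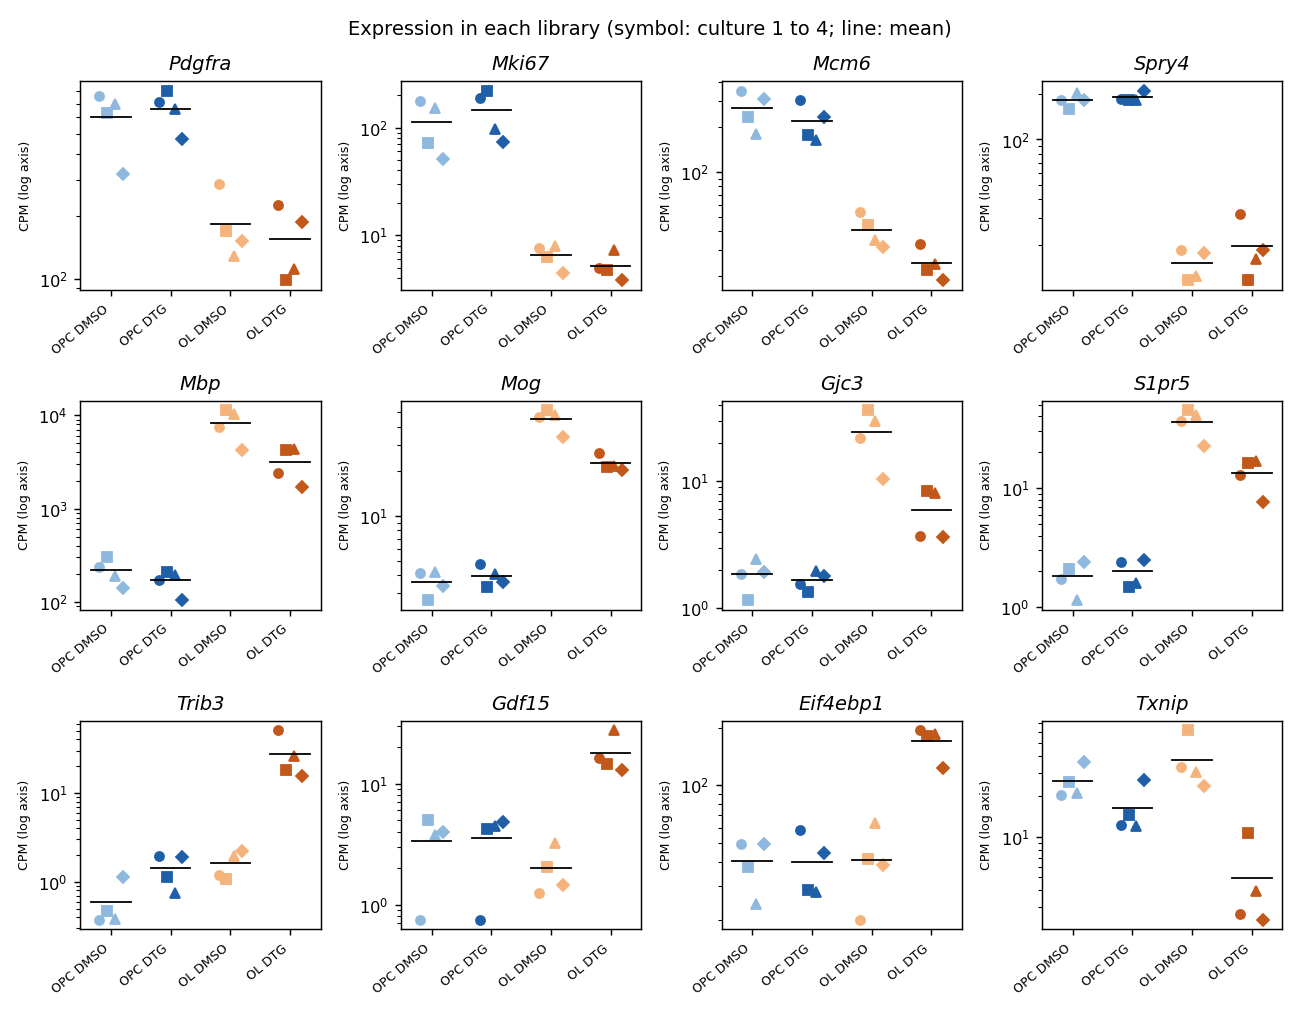
CPM on a log axis for 12 genes in the 16 DTG and DMSO libraries; marker shapes are cultures 1 to 4 and lines are group means. OL DTG overlaps OL DMSO for Pdgfra, Mki67 and Spry4, lies below it for Mog, Gjc3 and S1pr5, and above it for Trib3, Gdf15 and Eif4ebp1.

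Ranked by size among named genes that moved one way in 4 of 4 cultures, the rises were led by RGD1309651, the acyl-CoA thioesterase Acot11, AABR07019383.1, Pnlip, Kif19, Enpp6, Pgf, Mfng, Trib3 and Mbp. Only 57 of the 2084 genes that meet this rule in the upward direction have a symbol, so the ranking is one of named genes. Acot11 stood at 0.19990, 0.374, 0.538 and 0.167 CPM in OPC DTG and 15.1, 52.8, 50.4 and 35.9 CPM in OL DTG (6.82 ± 0.35, beside 5.48 ± 0.35 under DMSO), and the lipase Pnlip at 3.35, 3.90, 6.51 and 3.40 and 167, 199, 192 and 173 CPM (5.41 ± 0.26, beside 6.19 ± 0.29). Among genes without a symbol the steepest rises were ENSRNOG00000003880 and ENSRNOG00000047653, with 2 and 1 counts over the 4 OPC DTG libraries against 385 and 199 in OL DTG. RGD1309651 had 2 counts in OPC DTG and 332 in OL DTG, a ratio of 171 (exact 95% interval 47.0 to 1420, counting error only).

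The falls were led by Cbln4, a synaptic organiser, Serpinb7, the retinoic acid synthesising Aldh1a3, the teneurin Tenm2, AC130741.1, Cd93, AABR07072602.1, the spindle checkpoint kinase Ttk, the glutamate receptor Grm2 and Sp7. Cbln4 had 483 counts over the OPC DTG libraries and 3 over the OL DTG libraries, a ratio of 156 (exact 95% interval 53.1 to 759). Ttk went from 43.6, 61.3, 34.3 and 16.9 CPM to 1.19, 1.14, 0.689 and 0.423 (-5.51 ± 0.29, adjusted p = 2.16e-06, edgeR), and Serpinb7 from 15.9, 33.6, 13.5 and 8.86 CPM to 0.222, 0.0880, 0 and 0.302. For Aldh1a3, Tenm2, AC130741.1 and Sp7 the OL DTG libraries held 1 or 2 counts in all.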

How the data were processed

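Libraries were poly(A) RNA-seq of cultured primary rat OPCs and OLs with ERCC transcripts added. Per the submitters' processing notes the tools were bcl2fastq 2.20, STAR 2.5.2b and featureCounts of Subread 1.5.2 on Rnor_6.0, and the authors deposited raw counts per Ensembl gene. Both untreated replicate 3 tables hold another gene set and were not used here. ERCC rows were removed before testing. Symbols came from the study's own supplementary gene lists, from which no value was taken.

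Counts were tested in edgeR 4.0.16 (R 4.3.3) with filterByExpr as the low count filter, TMM factors and the quasi-likelihood F test. This main fit is meant where a result names edgeR alone. Genes were called at a Benjamini-Hochberg adjusted p under 0.05 and a log2 fold change beyond 1 in size. Culture was a block for each stage comparison, and culture and stage together for the interaction of 16 libraries. OPC and OL libraries of a number come from the same culture, independent cultures being the study's replicates. Their deviations from the group means correlated at 0.37, -0.09, 0.07 and -0.41 in cultures 1 to 4 under DTG and at 0.42, 0.03, 0.08 and 0.54 under DMSO. Between DMSO and DTG libraries of a culture, the blocks of the interaction, they correlated at 0.76, -0.15, 0.61 and 0.86 in OPCs. In OLs these values were 0.45, 0.43, 0.46 and -0.04. Total counts per library bound the precision, and standard errors are those implied by the F statistic. CPM were scaled by TMM over the 16 libraries. Positions used log2 CPM with a prior count of 2. A change was called of one direction from CPM with 0.1 added.

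Named genes were those on gene lists, the 10 steepest named rises and falls of each comparison (average log2 CPM over 0, all 4 cultures moving one way), and genes the study names. The members and lists were chosen with earlier results of these data known. Fits were tested on simulated data. Alternatives were no block, DESeq2 1.42.0, other scalings, other filters and leaving out each culture.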

Additional observations from a re-analysis of the deposited data

Results flagged for a closer look

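For 7 genes the change with differentiation differed between DTG and DMSO in the interaction test of edgeR (log2 difference, DTG minus DMSO). The change was higher under DTG for Gdf15 (3.10), Ifi27l2b (3.03), Eif4ebp1 (2.15) and Mthfd2 (1.38), and lower for Txnip (-2.35), Gjc3 (-1.89) and Arpc1b (-1.17), each in 4 of 4 cultures. The calls of Gjc3, Mthfd2 and Ifi27l2b were lost when any 1 culture was left out, and no call remained without culture 4. Mthfd2 kept its call in 2 of 12 alternatives, Gjc3 in 3, Ifi27l2b in 5, Arpc1b and Eif4ebp1 in 6, Txnip in 8 and Gdf15 in 9.

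Of 122 groups of 4 libraries examined, 10 had 1 library farther from the others than Dixon's 95% limit, and chance alone gives about 1 in 20. In OL DTG, AABR07019383.1 reached 16.7 CPM in culture 2, Ccnd1 309 CPM in culture 1, and Slc7a11 was low at 22.9 CPM in culture 2. AC130741.1 (0.0604 CPM), Aldh1a3 (0.0766 CPM) and Tenm2 (0.121 CPM) had counts in 1 OL DTG library and 0 in the others. In OPC DTG, culture 4 was high for Gad1 (53.5 CPM), Spry4 (211 CPM) and Txnip (26.6 CPM), and culture 1 was low for Gdf15 (0.750 CPM). The OPC DMSO library of culture 1 was also the lowest of its group for Gdf15, at 0.745 CPM, and that of culture 4 the highest for Gad1, at 38.0 CPM, and for Txnip, at 36.1 CPM.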

How the results depend on the processing

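Scaling to the ERCC counts had the widest effect: under DTG 415 genes were called higher and 7170 lower, and under DMSO 1625 in all, 135 higher and 1490 lower. The untreated risers then had 401 called and a median of 0.5488 under DTG, and 131 and 0.4505 under DMSO. The fallers had medians of -3.1608 and -3.0966, and all genes tested had a median of -1.40 in both. ERCC transcripts took 1.06 to 3.45% of all counts in OPC DMSO and 2.19 to 7.19% in OL DMSO. They took 1.09 to 1.81% in OPC DTG and 1.89 to 3.72% in OL DTG. The part of these spreads in the gap between the counts of calls was not tested. ERCC scaling also turned the DTG change of Atf4 (-0.278), Cdkn1a (-0.566), Mt-nd1 (-0.588), Mt-nd3 (-0.083) and Mthfd2 (-1.257). With no minimum fold change 3388 genes were higher under DTG, and 7591 changed under DMSO, 3553 higher and 4038 lower. The interaction was the least stable: DESeq2 called 60 (41 higher, 19 lower), no low count filter 69 (47 and 22), ERCC scaling 3 (1 higher), no replicate block 0 and a block by culture alone 0, and leaving out 1 culture left 0 to 4 (0 to 2 higher, 0 to 2 lower). In the paired stage comparisons, removing the block left 5174 calls under DTG and 4203 under DMSO, and leaving out a culture 4183 to 6368 and 3604 to 4849. As each culture was left out, the DTG change ranged from -0.788 to 0.011 for Ifi27l2b and from -0.037 to 0.157 for Mthfd2, and the faller position difference ranged from -0.014 to 0.016 as each culture was left out. Among named genes, 588 of 605 alternative values under DTG kept direction and side of the threshold. The scaling without mitochondrial genes was chosen after seeing the data and called 5063, 4244 and 5 genes. The causes were not tested.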

Other observations

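The mitochondrial chromosome took 3.13 to 5.72% of gene counts in OPC DTG, 3.96 to 5.70% in OL DTG, 2.01 to 4.52% in OPC DMSO and 2.04 to 2.55% in OL DMSO. Of 25 of its genes tested under DTG, 18 had a log2 fold change above 0. Of these 25, 2 were called higher and 2 lower, beside 16.6% and 21.8% of all genes. Under DMSO 11 of 23 were above 0, also with 2 called higher and 2 lower, beside 14.9% and 17.7% of all genes. The test of whether the change with differentiation differed between DTG and DMSO called 0 of 25 in edgeR and 0 in DESeq2. In edgeR 9 of the 25 had an unadjusted p under 0.05, beside 1028 of all 13734 genes. DTG and DMSO libraries of the same stage were not tested against each other. Mt-nd3, a subunit of complex I, rose from 226, 319.7, 296 and 363 CPM to 731, 616, 709 and 792 CPM (1.21 ± 0.21 on the log2 scale, adjusted p = 0.00121, edgeR), a change that was -0.08 against the ERCC counts, and Mt-nd1 gave 0.71 ± 0.23, which was -0.59 against the ERCC counts.

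Of 9 targets of p53 with a symbol, 6 were named from the study's list of genes that fell in DMSO and 3 from its contrast of OL DTG with OL DMSO, so their directions are not independent of those choices. Under DTG, where 16.6% of all genes were called higher and 21.8% lower, Gdf15 and the sestrin Sesn2 rose (Sesn2 turned to -0.14 against the ERCC counts), 5 fell, among them the receptor Eda2r (-3.03) and the kinase Plk2 (-2.63), and Cdkn1a and Fas did not pass. Of 4 chaperone and unfolded protein response genes with a symbol, Creb3l1, a membrane-bound transcription factor, rose by 2.33 ± 0.26 under DTG and 0.85 ± 0.20 under DMSO, while the chaperone Hsp90b1 fell by 2.02 and the mannosidase-like Edem1 by 1.44. Against the ERCC counts the DMSO change of Creb3l1 was negative. Pmp2, a lipid-binding protein of peripheral myelin, fell under DTG (-1.34 ± 0.37) and had 0.73 ± 0.34 under DMSO (negative against the ERCC counts). Hopx, a homeodomain protein chosen here after its values were seen, rose by 3.46 ± 0.31 under DTG and 2.13 ± 0.24 under DMSO. For Creb3l1, Pmp2 and Hopx the difference between the changes under DTG and under DMSO did not pass in edgeR. DESeq2 called this difference for Creb3l1 and Hopx.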
